A study of Morone chrysops with 54 samples.

Results

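The contigs described here are 118 whose levels followed 7 markers of exocrine pancreas from liver to liver in juvenile white bass (Morone chrysops), of 9548 contigs considered. RNA sequencing libraries were made from 54 livers, 1 per fish, with 9 fish fed each diet. The groups were Diet 2 (low fish meal with high soy), Diet 3 (low fish meal with poultry meal), Diet 4 (poultry meal without fish meal), Diet 5 (all plant protein), Diet 6 (a test of commercial ingredients) and Diet 1 (standard fish meal, the control). By the study's methods, 3 fish were taken from each of 3 tanks per diet, and all were left unfed for some hours before sampling. Fish were taken as the replicates, and what fish of a tank share is then not part of the p-values. Reads had been counted by the authors on 20914 transcriptome contigs.

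Members were chosen by a correlation rule on 53 libraries. A mean count of 5 or more was required, which left 9548 contigs. Counts were scaled to CPM (counts per 1e+06 counts of the library) with TMM factors, taken to log2 with a prior count of 0.5, and each diet's mean was removed. A contig was kept where its Pearson r with the mean of the 7 markers exceeded 0.5. The markers were 4 proteases or their precursors (trypsin-2, elastase-1-like, chymotrypsin A-like and carboxypeptidase B), the fat-digesting enzyme pancreatic lipase, the nuclease deoxyribonuclease I, and a transcription factor, class A basic helix-loop-helix protein 15. These 7 were left out, together with insulin, homeobox protein Nkx-6.1 and gamma-synuclein, and 118 contigs remained. Of these, 39 had a name and 79 had none. Names come from the study's supplementary lists of contigs that it found to differ between diets, so that a named contig was already selected for a diet difference in these libraries. Only 975 of the 9548 contigs considered had a name.

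Acinar cells of the exocrine pancreas make digestive enzymes in bulk, as inactive precursors such as those of trypsin, chymotrypsin and elastase, with lipases for fat and nucleases for nucleic acids. Class A basic helix-loop-helix protein 15, known as Mist1 in mammals, is a transcription factor that maintains the secretory state of these cells. In several teleosts the exocrine tissue grows along the portal vessels into the liver and forms a hepatopancreas, and its share of a given sample can vary. Endocrine islets, which make insulin, are a separate cell type and were represented here by insulin and Nkx-6.1. In bulk tissue, fewer cells of a type and less RNA per cell cannot be told apart.

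The 53 libraries used held 5964761 to 17336918 counts each (median 11378553). Replicate 7 of Diet 5 held 755 counts and was left out of every level, correlation and plot, which leaves 8 fish for Diet 5 and 9 for every other diet. It was kept in the tests of Diet 5. In the others, 1 count was worth 0.0577 to 0.168 CPM before TMM factors were applied. The 35 members with a mean under 2 CPM thus rested on few reads. At least 1 fish had 0 counts in 55 members.

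The marker levels differed widely between fish. The mean of the 7 markers, in log2 CPM, had a lowest, median and highest value of 6.65, 10.1 and 11.3 with Diet 2, 4.85, 9.90 and 11.4 with Diet 3, and 2.78, 9.25 and 10.6 with Diet 4. It was 7.13, 9.42 and 10.8 with Diet 5, 1.503, 8.79 and 10.5 with Diet 6, and 8.04, 11.4 and 12.1 with Diet 1. The groups overlapped throughout, and Diet 6 had both a wide spread and the lowest fish. The 7 markers together took 0.0108% to 8.81% of the library counts with Diet 6 and 1.10% to 14.8% with Diet 1. The 118 members took far less, with a lowest, median and highest share of 0.180%, 0.922% and 2.88% with Diet 6 and 0.512%, 2.29% and 2.86% with Diet 1.

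**Figure D1:**
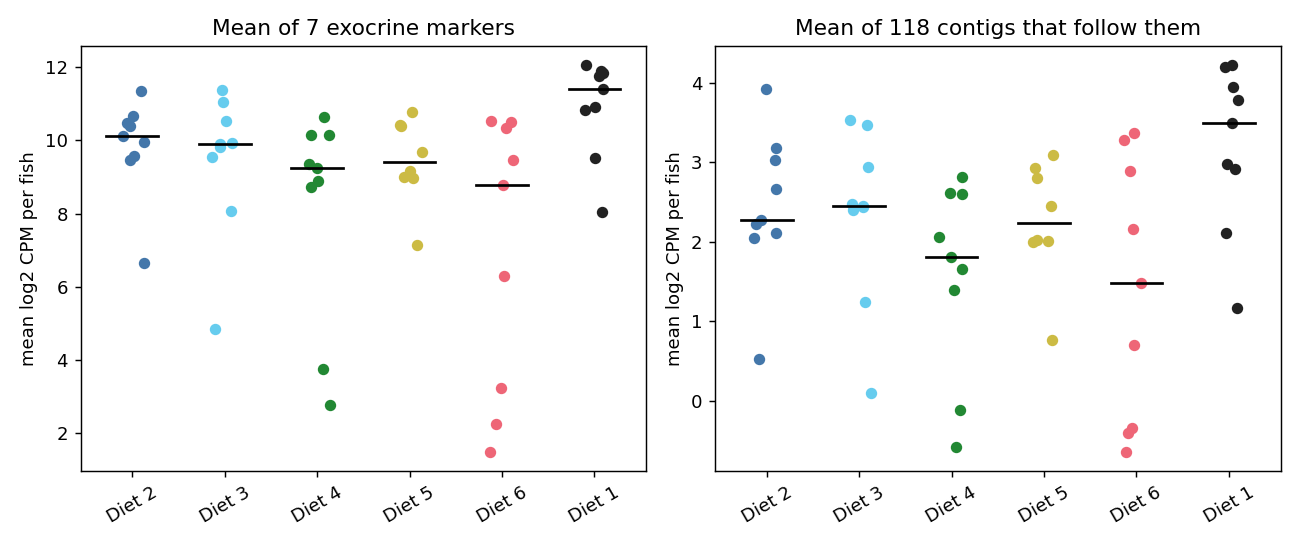
Mean log2 CPM of the 7 exocrine markers (left) and of the 118 members (right), 1 point per fish and a line at each diet's median. Fish of Diet 6 lay between 1.503 and 10.5 in the marker mean, and those of Diet 1 between 8.04 and 12.1.

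The correlations describe the choice of members and carry no test. The r of members with the marker mean ran between 0.501 and 0.986, with a median of 0.661, against a median of -0.04 over all contigs considered. It exceeded 0.9 in 13 members and 0.7 in 53. In the opposite direction, 14 contigs had an r under -0.5, with a lowest value of -0.58. The threshold cut through a continuous range. The last 2 contigs inside it had r of 0.501 and 0.502 and the first 2 outside had 0.499 and 0.495. The last of these was protein jagged-2-like, a Notch ligand. Leaving out the 2 fish farthest from the centre of the marker mean kept 108 members over 0.5, and the lowest r was then 0.444.

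The members followed each other, which follows in large part from keeping each for its r with the same marker mean. The values in this paragraph rest on the same data as the rule and are descriptions. The first principal component over the 118 held 57.6% of their variance after diet means were removed, the second 5.48%, and the median r between members was 0.555. Within single diets, an r above 0.5 was found for 94 members in Diet 2, 101 in Diet 3, 94 in Diet 4, 87 in Diet 5, 108 in Diet 6 and 111 in Diet 1. The sample file names carry an L tag of 1, 2 or 3 whose meaning is not given. Within the fish of these tags, 76, 106 and 94 members exceeded 0.5. The tag goes with the replicate number in every diet, with 1, 4 and 7 as L1, 2, 5 and 8 as L2 and 3, 6 and 9 as L3. Replicate 8 lay below its diet's marker mean in all 6 diets. Replicate 3 lay above it in all 6 and replicate 7 in all 5 measured. Fish above their diet's mean were more common than fish below it, and replicate 3 of Diet 1 was above by only 0.0008 log2. The part of the tag or number in the results was not tested beyond the fits with it as a term.

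The rule kept contigs for their r with the exocrine markers, so that a lower r with endocrine contigs follows from the choice and is given as a description. The r of members with insulin had a median of 0.127 and ran between -0.09 and 0.315, while with Nkx-6.1 it had a median of 0.477 and ran between 0.175 and 0.694. Insulin was at 0 in the median fish of Diets 2 to 6 and reached 40.2 CPM in 1 fish of Diet 1, so that its correlations rest on few fish. Nkx-6.1, a transcription factor of islet cells and their precursors, itself had an r of 0.523 with the exocrine markers, and 3 members lay closer to it than to the marker mean. Among 13 contigs of hepatocyte products the median r with the marker mean was -0.16, among 16 of vessel and connective tissue 0.0198, and among 12 of blood and immune cells -0.03. None of these 3 lists held a member, where 118 of the 9548 contigs considered and 39 of the 975 named ones were members. At such shares, lists of this size would hold few members or none, so this count is no result about cell types.

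Members differed widely in how steeply they followed the markers. The slope is the change in a member's log2 CPM for each unit of the marker mean, so that 1 means a proportional change. It was 0.683 to 1.08 in the 7 markers. In the members it had a median of 0.425 and ran between 0.0570 and 1.10. A slope over 0.75 was found in 23 members, 59 had one between 0.25 and 0.75, and 36 had 0.25 or less. Only 3 of the steep members were named, namely centromere protein F-like, vitelline membrane outer layer protein 1 homolog and excitatory amino acid transporter 2.

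**Figure D2:**
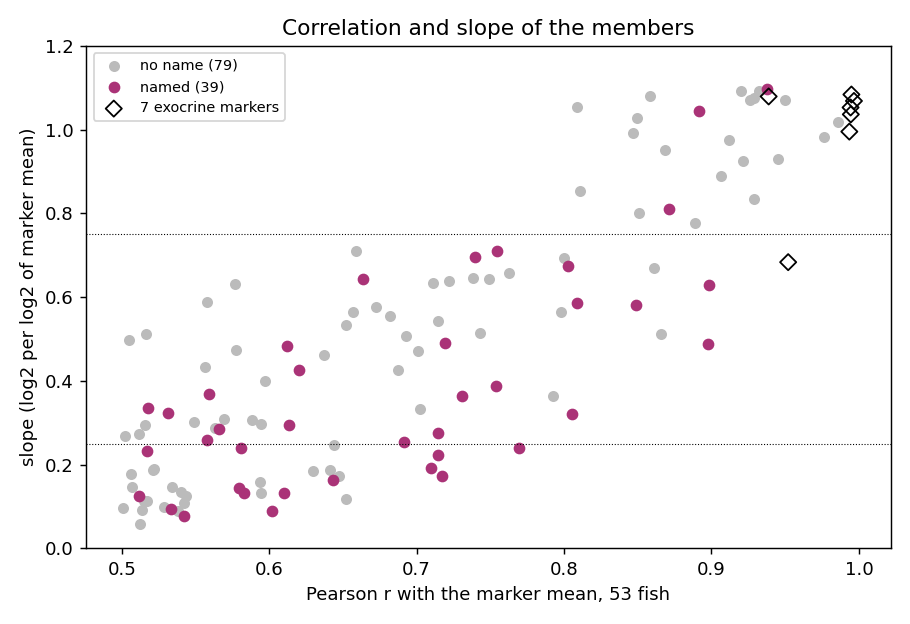
Pearson r with the marker mean (horizontal axis) and slope in log2 per log2 of marker mean (vertical axis) for the 118 members and the 7 markers. Named members lie mostly at slopes under 0.75, and 20 unnamed and 3 named members lie above that line.

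Of the 13 members with an r above 0.9, 12 had no name, as had 79 of all 118 members. The median r was 0.657 in unnamed and 0.692 in named members. The highest r belonged to GAZY01129418.1 (r = 0.986) and GAZY01118677.1 (r = 0.976). The level of GAZY01129418.1 was 2.14 to 2104 CPM with Diet 6 (median 457) and 315 to 5078 CPM with Diet 1 (median 2542). That of GAZY01118677.1 was 18.4 to 12960 CPM with Diet 6 (median 4879) and 2779 to 20940 CPM with Diet 1 (median 9881). Both reached levels of the enzyme markers, and both ranges overlapped between the diets. The files and supplements give no name for them.

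Among named members, centromere protein F-like was the closest follower and the one with the widest range across fish. Centromere protein F is a kinetochore and nuclear matrix protein of dividing cells. Its level in CPM had a lowest, median and highest value of 3.11, 29.7 and 89.3 with Diet 2, 0.159, 45.0 and 89.6 with Diet 3, and 0, 12.6 and 108 with Diet 4. It was 5.37, 27.2 and 59.3 with Diet 5, 0, 17.2 and 113 with Diet 6, and 7.51, 75.5 and 208 with Diet 1. All groups overlapped, and the 2 fish at 0, replicate 9 of Diet 6 and replicate 6 of Diet 4, were among the 3 fish with the lowest marker mean. Its r was 0.938 with the exocrine markers and 0.135 with the mean of 14 other contigs of the cell cycle, over the same 53 fish. The contig was kept for its r with the markers, so the gap between these values follows in part from the choice.

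Vitelline membrane outer layer protein 1 homolog had an r of 0.892 and a slope of 1.05. The protein is named for the outer layer of the egg's vitelline membrane in birds. It lay between 0 and 197 CPM with Diet 6 (median 7.96) and between 4.93 and 196 CPM with Diet 1 (median 50.4). The groups overlapped up to their highest fish, but replicates 2, 4, 8 and 9 of Diet 6 lay below every fish of Diet 1. Its r with vitellogenin B, a yolk precursor made in female livers, was 0.317. Vitellogenin B itself had an r of 0.447 with the exocrine markers.

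Several membrane proteins were among the 12 named members with the highest r. Chloride channel protein 2-like, a voltage-gated chloride channel of epithelia, had an r of 0.898 and a slope of 0.628, with 7.29 CPM on average. Excitatory amino acid transporter 2, a glutamate transporter, had an r of 0.871 and averaged 3.23 CPM. Lysophosphatidic acid receptor 1-A-like, a G protein-coupled receptor for a lipid mediator, had an r of 0.849 at 3.08 CPM. Polycystic kidney disease protein 1-like 1, a polycystin-family membrane protein, had an r of 0.809 at 1.86 CPM, and transmembrane protein 116-like had 0.803 at 1.34 CPM, with 10 fish at 0. Other transporters lay near the threshold, with an r of 0.581 for solute carrier family 35 member D3 and 0.531 for sodium/glucose cotransporter 5.

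A further group stood at high r with a shallow slope, and its members kept a level of their own in fish with almost no marker RNA. Guanidinoacetate N-methyltransferase makes creatine from guanidinoacetate and is strong in both liver and pancreas of mammals. Its r was 0.805 and its slope 0.321. In the 3 fish with the lowest marker mean it had 91.1, 89.4 and 76.5 CPM (replicates 2 and 9 of Diet 6 and replicate 6 of Diet 4), while pancreatic lipase had 0.989, 1.46 and 2.85 CPM there. In the 3 fish with the highest marker mean, all of Diet 1 (replicates 9, 4 and 6), it had 840, 947 and 919 CPM, and pancreatic lipase had 2943, 2840 and 3015 CPM. These are single fish picked by the marker mean, given as values without a test.

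On the linear scale, the CPM of guanidinoacetate N-methyltransferase against the summed CPM of the 7 markers gave a straight line with an r of 0.927 over 53 fish (0.917 with diet means removed). The fitted line had an intercept of 18.8 CPM at a marker sum of 0, which is 6.82% of the contig's mean. Polyadenylate-binding protein 4, which binds the poly(A) tails of mRNA, gave an r of 0.905 and an intercept of 34.1% of its mean. Neural proliferation differentiation and control protein 1-like gave 0.948 and 30.3%, and reticulon-1, a membrane protein that shapes the endoplasmic reticulum (ER), gave 0.934 and 0.0567%. For nuclear protein 1-like, a stress-response chromatin protein first described in injured rodent pancreas, the intercept was 57.0%, and for 1-phosphatidylinositol phosphodiesterase-like it was 70.0%. An intercept is not the level measured without marker RNA, since the lines missed the fish at the low end. In the 3 fish with the lowest marker mean, reticulon-1 had 9.28, 8.67 and 7.13 CPM against an intercept of 0.0453 CPM, and guanidinoacetate N-methyltransferase had the 76.5 to 91.1 CPM given above against 18.8 CPM. Nuclear protein 1-like had 373, 282 and 370 CPM there against an intercept of 441 CPM. With diet means removed, the linear r was 0.867 for polyadenylate-binding protein 4, 0.933 for neural proliferation differentiation and control protein 1-like and 0.904 for reticulon-1. These contigs were kept for their log-scale r with the same markers in the same fish. A high r here thus follows in large part from that choice. The points share the same 53 libraries and their scaling.

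**Figure D3:**
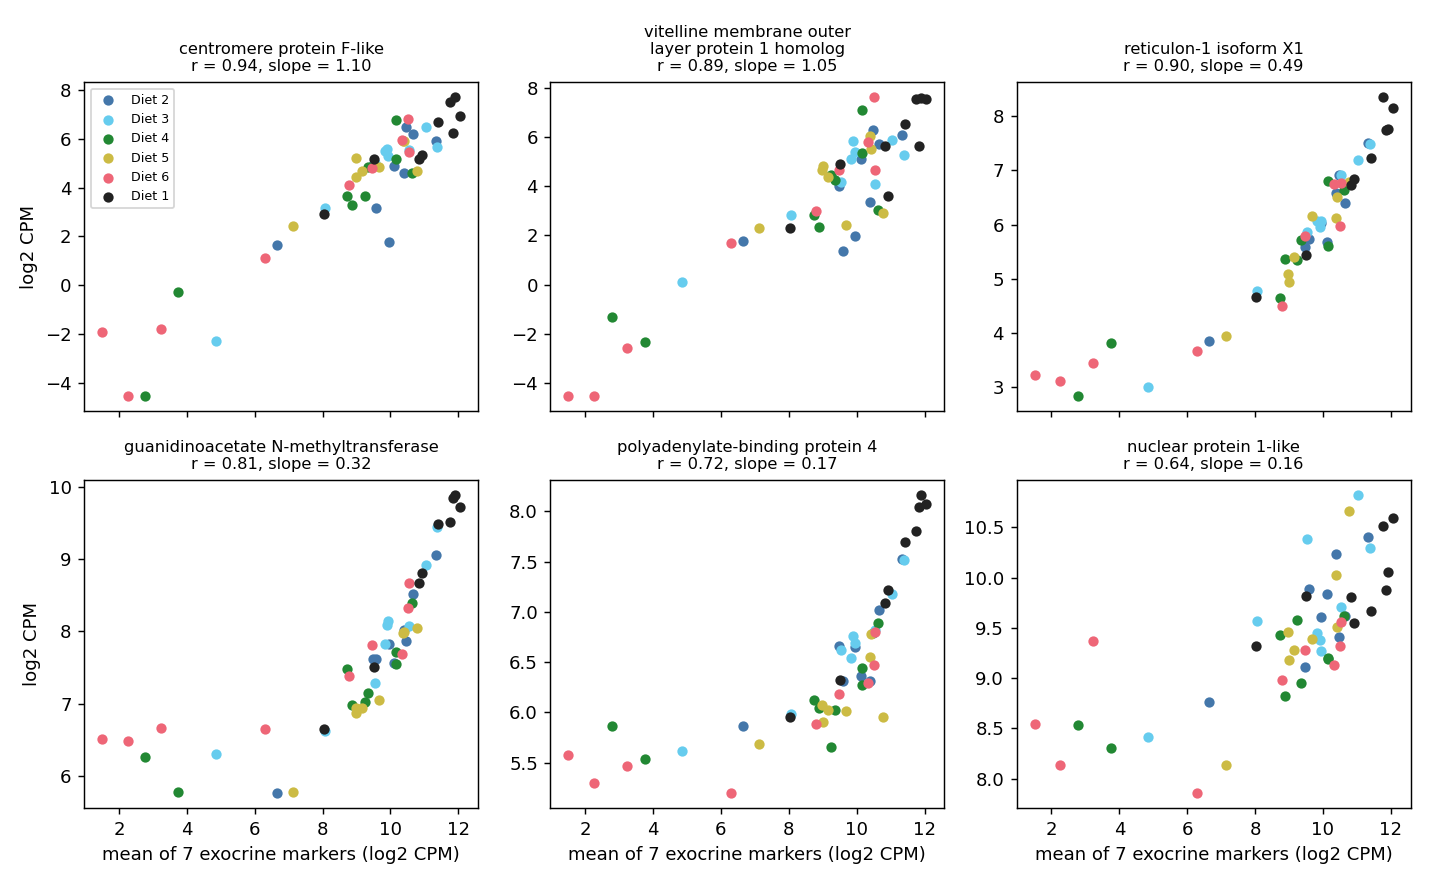
Level of 6 named members (log2 CPM) against the mean of the 7 exocrine markers (log2 CPM), 1 point per fish, coloured by diet. The top left panel follows the markers over the whole range (slope 1.10), while guanidinoacetate N-methyltransferase and polyadenylate-binding protein 4 stay flat at low marker means and climb at high ones.

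Nuclear protein 1-like was the named member with the highest mean, 772 CPM. Its level had a lowest, median and highest value of 435, 784 and 1359 CPM with Diet 2, 341, 759 and 1812 CPM with Diet 3, and 316, 586 and 788 CPM with Diet 4. It was 282, 686 and 1624 CPM with Diet 5, 232, 561 and 752 CPM with Diet 6, and 640, 900 and 1543 CPM with Diet 1. Diet 6 lay low with little overlap with Diet 1, and Diets 2, 3 and 5 overlapped widely with it.

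Several pairs of named members stayed close once the straight line on the marker mean was taken out of both. The r between reticulon-1 and neural proliferation differentiation and control protein 1-like was 0.934 before and 0.864 after. Between guanidinoacetate N-methyltransferase and polyadenylate-binding protein 4 it was 0.928 before and 0.847 after. A straight line on the log scale was a poor description of these curved members, and the fish highest after its removal was the fish with the lowest marker mean, replicate 2 of Diet 6, in 18 of the 118 members. Over all members, the median r between pairs was 0.167 after removal.

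Contigs with names close to a member's were set beside it as a description. Only 118 of the 9548 contigs considered passed the rule. A low r with the markers in a contig outside it thus follows largely from the choice. 40S ribosomal protein S19, a subunit protein of every ribosome, averaged 1.88 CPM with 11 fish at 0, had an r of 0.755 with the markers and one of -0.04 with 40S ribosomal protein S20. At that level most reads of the gene may lie on other contigs, and reads of near-identical copies can be split between contigs. Arginase-2, the mitochondrial arginase, had an r of 0.731, whereas arginase-1-like, named for the urea cycle enzyme, had 0.0319 with the markers and -0.17 with arginase-2. Protein disulfide-isomerase-like, which forms disulfide bonds in the ER, was the only member among 20 contigs of ER folding and protein entry that were considered. That count is near the share of named contigs that were members, 39 of 975. The r of protein disulfide-isomerase-like was 0.558, against a median of 0.0866 over the 20, and it averaged 4.37 CPM.

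The remaining named members fall into small groups by role. Signalling members were lysophosphatidic acid receptor 1-A-like, adenylate cyclase type 9, rho guanine nucleotide exchange factor 38, GTP-binding protein REM 2 and ras and EF-hand domain-containing protein, with r between 0.614 and 0.849. Gelsolin, which severs actin filaments, had an r of 0.692, and KN motif and ankyrin repeat domain-containing protein 4, which acts on the actin cytoskeleton in mammals, had 0.710. Amino acid and mitochondrial metabolism gave 7 members, among them glutaminase, acetyl-CoA acetyltransferase, dihydrofolate reductase-like and atypical kinase COQ8A, which serves ubiquinone synthesis, with r of 0.517 to 0.805. Beta-galactoside-binding lectin-like, a sugar-binding protein, had an r of 0.754 and reached 324 CPM in replicate 1 of Diet 3.

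Each test diet was then compared with Diet 1, which asks whether contigs that follow exocrine tissue within diets also differ between diets. Diet means had been removed before the rule was applied, so these contrasts were not used by it, but the 7 markers came from lists of contigs that differed in the same libraries. A contig was called at a Benjamini-Hochberg adjusted p under 0.05 over all contigs tested in edgeR's quasi-likelihood test, together with a difference above 1.5-fold. The 5 comparisons share the same 9 fish of Diet 1, so their results are not independent of each other. All 118 members were tested in each.

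With Diet 5, 20 members were called and all 20 were lower than with Diet 1. That is 16.9% of the members, where 5.78% of the 9234 contigs tested were called in either direction and 2.86% were called lower. With Diet 6, 8 members were called, again all lower, or 6.78% of the members, where 1.14% of 9783 contigs were called and 0.562% were called lower. Each of the calls with Diets 5 and 6 fell on a named contig, and the names used here were taken only from the study's lists of differing contigs, so the division between named and unnamed is no separate evidence. At an unadjusted p under 0.05 and more than 1.5-fold, 55 members were lower with Diet 5 (5.9% of contigs) and 56 with Diet 6 (3.52%). DESeq2 called 7 members lower with Diet 5 (0.856% of contigs) and 19 with Diet 6 (1.38%).

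With Diet 2, 0 members were called by edgeR and 1 was called lower by DESeq2, where edgeR called 0.0438% of 9130 contigs (0.011% lower) and DESeq2 called 0.318% lower. DESeq2 gave no adjusted p there for 52 of the 118 members. At an unadjusted p under 0.05 and more than 1.5-fold, 19 members were lower and 0 higher, with 1.53% of contigs lower. With Diet 3, 0 members were called by edgeR and 0 by DESeq2, where edgeR called 0% of 9339 contigs and DESeq2 called 0.0214% lower. At the unadjusted p, 33 members and 1.18% of contigs were lower. With Diet 4, edgeR called 0 members and 0% of 9387 contigs, while DESeq2 called 25 members, all lower, and 0.501% of all contigs lower. At the unadjusted p, 76 members and 2.27% of contigs were lower with Diet 4. A call missed with Diets 2 to 4 does not show that the members were alike in both groups.

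The direction was the same over most members. The median log2 fold change of the 118 was -0.64 with Diet 2 (112 members lower), -0.78 with Diet 3 (118 lower) and -1.33 with Diet 4 (118 lower). It was -1.04 with Diet 5 (111 lower) and -1.26 with Diet 6 (115 lower). Over all contigs tested the medians were -0.01, -0.00, 0.02, -0.01 and 0.01, and 51.4%, 50.1%, 47.4%, 50.9% and 48.6% of contigs were lower. The members follow each other, so 118 contigs are far from 118 separate observations. The median log2 fold change of the 7 markers was -1.005, -1.11, -1.88, -1.54 and -2.17 with Diets 2 to 6. Of the 7, 4 were called lower with Diet 5, where 2.86% of contigs were called lower. With Diets 2, 3, 4 and 6, 0 were called. The markers came from lists of differing contigs, so these counts are no separate evidence.

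**Figure D4:**
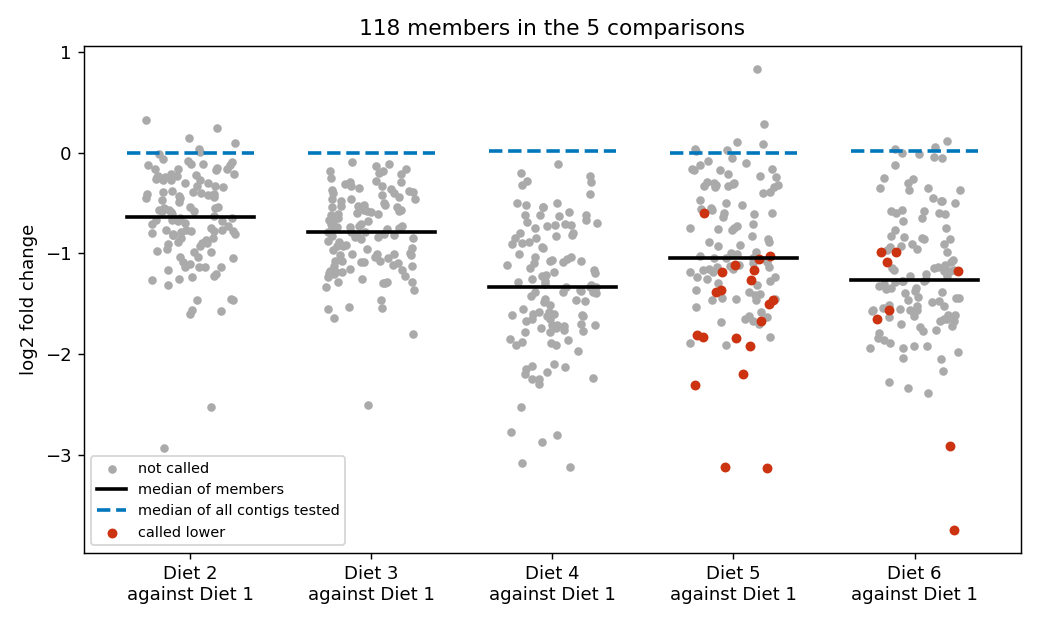
Log2 fold change of each of the 118 members in the 5 comparisons with Diet 1, with called members in red, the median of the members as a solid line and that of all contigs tested as a dashed line. The member medians lie between -1.33 and -0.64 and the dashed lines near 0.

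Calls were not set by the size of the change alone. With Diet 5, the 23 members with a slope over 0.75 had a median log2 fold change of -1.23 with a median standard error (SE) of 0.590, and 1 of them was called. The 59 with a slope of 0.25 to 0.75 had -1.15 and 0.553, and 11 were called. The 36 with a slope of 0.25 or less had -0.33 and 0.266, and 8 were called. With Diet 6, the SE of the steep members was 0.899, and 0 of the 23 were called, against 3 of the 59 and 5 of the 36. The steep members thus had larger differences and larger errors.

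Polyadenylate-binding protein 4 was called with both diets. Its level had a lowest, median and highest value of 51.4, 64.8 and 110 CPM with Diet 5, 36.6, 58.8 and 112 CPM with Diet 6, and 61.8, 208 and 287 CPM with Diet 1. Replicates 2 and 8 of Diet 1 lay within the ranges of Diets 5 and 6. The log2 fold change was -1.39 (SE 0.263, edgeR adjusted p = 0.00436) with Diet 5 and -1.56 (SE 0.290, edgeR adjusted p = 0.00742) with Diet 6. With Diet 4 it was -1.38 (SE 0.261, edgeR adjusted p = 0.12), and it became a call there without replicate 8 of Diet 1, at a log2 fold change of -1.49. DESeq2 and 1 edgeR fit of all libraries also called it with Diet 4. The calls with Diets 5 and 6 held with each fish left out in turn, with edgeR adjusted p up to 0.00985 and 0.0204.

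Guanidinoacetate N-methyltransferase had a lowest, median and highest level of 54.7, 128 and 265 CPM with Diet 5, 89.4, 167 and 408 CPM with Diet 6, and 101, 716 and 947 CPM with Diet 1. Every fish of Diets 5 and 6 lay below the median of Diet 1. The ranges overlapped through replicates 2 and 8 of Diet 1 and, with Diet 6, narrowly through replicate 5 too. The log2 fold change was -1.84 (SE 0.388, edgeR adjusted p = 0.0073) with Diet 5, a call that held with each fish left out. With Diet 4 it was -1.86 (SE 0.382, edgeR adjusted p = 0.12), and it was called there by DESeq2 and by edgeR in 1 of 18 omissions. With Diet 6 it was -1.65 (SE 0.398, edgeR adjusted p = 0.0362), and that call was lost in 10 of 18 omissions. Those were replicates 1, 4, 6 and 9 of Diet 1 and replicates 1, 2, 3, 4, 8 and 9 of Diet 6, with log2 fold changes between -1.88 and -1.54 over all omissions.

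40S ribosomal protein S19 had large differences at low levels. It had a lowest, median and highest level of 0, 0.219 and 4.78 CPM with Diet 5, 0, 0.257 and 1.67 CPM with Diet 6, and 0.235, 6.20 and 19.9 CPM with Diet 1. The ranges overlapped, although all fish of Diets 5 and 6 were below the median of Diet 1. At 0.0577 to 0.168 CPM per count before TMM factors, the medians with Diets 5 and 6 rest on few reads. Most counts behind its mean, on which the filter acts, came from Diet 1, so the size of its fold changes is uncertain. The log2 fold change was -3.13 (SE 0.786, edgeR adjusted p = 0.0186) with Diet 5 and -3.74 (SE 0.758, edgeR adjusted p = 0.0142) with Diet 6. It was -2.92 with Diet 2 (edgeR adjusted p = 0.108), which became a call without replicate 8 of Diet 1 (-3.09), and -2.51 with Diet 3 (edgeR adjusted p = 0.892).

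Atypical kinase COQ8A had a lowest, median and highest level of 5.26, 7.41 and 15.1 CPM with Diet 5, 3.86, 6.27 and 17.1 CPM with Diet 6, and 9.77, 17.0 and 26.2 CPM with Diet 1. The groups overlapped from 9.77 CPM up to 15.1 CPM with Diet 5 and 17.1 CPM with Diet 6, the latter about the median of Diet 1. The log2 fold change was -1.17 with Diet 5 (SE 0.227, edgeR adjusted p = 0.00459), which held with each fish left out. With Diet 6 it was -1.17 as well (SE 0.271, edgeR adjusted p = 0.0284), and the call was lost without replicate 6 or 9 of Diet 1 or replicate 1, 3, 8 or 9 of Diet 6, at -1.37 to -1.08 over all omissions. With Diet 2 it was -0.77 (SE 0.209, edgeR adjusted p = 0.165), where DESeq2 called it.

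Complement C1q-like protein 2, a secreted protein of the C1q family, was the only member with no overlap between the groups. Its level was 0, 0.525 and 1.65 CPM with Diet 5 (lowest, median and highest) and 1.88, 3.77 and 13.3 CPM with Diet 1. The log2 fold change was -3.12 (SE 0.631, edgeR adjusted p = 0.00562). Its levels with Diet 5 rest on few reads, and most of its counts in this comparison came from Diet 1. Of 9173 contigs with levels, 0.294% had every fish of Diet 5 below every fish of Diet 1. The share was 0%, 0.0216%, 0.0107% and 0.0527% with Diets 2, 3, 4 and 6, where all members overlapped.

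Among transporters and signalling members, the calls with Diet 5 that held with each fish left out included those of solute carrier family 35 member D3, a sugar nucleotide transporter family member, at -1.46 (SE 0.303), sodium/glucose cotransporter 5 at -2.30 (SE 0.597) and GTP-binding protein REM 2, a small GTPase, at -1.92 (SE 0.479). So did those of KN motif and ankyrin repeat domain-containing protein 4 at -1.19 (SE 0.254) and arginase-2 at -1.83 (SE 0.427). The sample file names also carry a T tag whose meaning is not given, with 3 T tags per diet and 3 fish for each. The call of GTP-binding protein REM 2 was lost with counts summed per T tag, and that of sodium/glucose cotransporter 5 with the L tag as a covariate. The medians of sodium/glucose cotransporter 5 with Diets 5 and 2 rest on few reads too. Sodium/glucose cotransporter 5 was 0.116 to 3.25 CPM with Diet 5 (median 0.541), 0.261 to 1.38 CPM with Diet 2 (median 0.651) and 0.400 to 8.16 CPM with Diet 1 (median 4.01). With Diet 2 its log2 fold change was -2.52 (SE 0.502, edgeR adjusted p = 0.0683). It became a call without replicate 2, 5, 7 or 8 of Diet 1, with values between -2.68 and -2.35. GTP-binding protein REM 2 and arginase-2 had -1.80 and -1.64 with Diet 3, neither called (edgeR adjusted p = 0.892 and 0.927).

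The other 10 calls with Diet 5 were less stable. Those of adenylate cyclase type 9 (-1.36) and testis development-related protein (-1.02) were each lost without replicate 9 of Diet 1 or replicate 3 of Diet 5, and the first also without replicate 4 and the second without replicate 6 of Diet 1. That of reticulon-1 (-1.51) was lost in 7 of 18 omissions. Those of gelsolin, neural proliferation differentiation and control protein 1-like, chloride channel protein 2-like, excitatory amino acid transporter 2, F-box/LRR-repeat protein 2-like, phospholipid phosphatase 2-like and dihydrofolate reductase-like were lost in 10 to 14, with log2 fold changes of -2.20 to -0.59.

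With Diet 6, the smallest p among named members belonged to 1-phosphatidylinositol phosphodiesterase-like, an enzyme that cleaves phosphatidylinositol. Its level was 197, 325 and 390 CPM with Diet 6 (lowest, median and highest) and 385, 558 and 851 CPM with Diet 1, so that the ranges met only at their ends. The log2 fold change was -0.98 (SE 0.175, edgeR adjusted p = 0.00515) and held with each fish left out. Its slope on the markers, 0.0777, was among the lowest of the members. Nuclear protein 1-like had -0.98 (SE 0.223, edgeR adjusted p = 0.0253), a call lost without replicate 9 of Diet 1 or replicate 9 of Diet 6. Testis development-related protein (-1.09) and F-box/LRR-repeat protein 2-like (-2.91) were lost in 12 and 13 of 18 omissions. With counts summed per T tag, the Diet 6 calls of nuclear protein 1-like, atypical kinase COQ8A and testis development-related protein were lost too.

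Counts of called members moved with single fish. The share of all contigs called in each omission is not given here, so these counts cannot show a shift particular to the members. With Diet 5, 13, 11, 11, 36 and 10 members were called without replicates 1, 4, 6, 8 and 9 of Diet 1, and 12, 13, 12, 12 and 13 without replicates 1, 3, 4, 6 and 8 of Diet 5. With Diet 6, 5, 5, 4 and 3 were called without replicates 1, 4, 6 and 9 of Diet 1, and 5, 5, 4, 19, 4 and 3 without replicates 1, 2, 3, 5, 8 and 9 of Diet 6. With Diet 4, 3 were called without replicate 8 of Diet 1. With Diet 2, 1 was called without replicate 2, 5 or 7 of Diet 1 and 2 without replicate 8. The median log2 fold change stayed negative in every omission, between -1.54 and -0.51 over the 5 comparisons. Without replicate 7 of Diet 5, the library of 755 counts, 18 members were called with Diet 5 by edgeR and 27 by DESeq2, against 7 by DESeq2 with it, where 61 members had no adjusted p.

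The tests were repeated with the marker mean of each fish as a covariate and without replicate 7 of Diet 5. Because the members were chosen for their r with this mean, smaller differences follow in part from the choice. The median log2 fold change became 0.12, -0.02, -0.26, 0.18 and 0.10 with Diets 2 to 6. With Diets 2 to 4, edgeR called 0 members, where 0.12%, 0% and 0% of contigs were called. There, 9, 6 and 11 members passed an unadjusted p under 0.05 and more than 1.5-fold, in either direction. The share of all contigs at that threshold is not given for this fit, so these counts have no background to be read against. With Diet 5, 4 members were called, 3 of them lower, where 4.82% of 9333 contigs were called. The 3 were guanidinoacetate N-methyltransferase (-0.59, SE 0.131, edgeR adjusted p = 0.0172), atypical kinase COQ8A (-0.83, SE 0.204, edgeR adjusted p = 0.025) and solute carrier family 35 member D3 (-1.28, SE 0.358, edgeR adjusted p = 0.0414). The fourth call with Diet 5 and the only call with Diet 6 were the same unnamed contig, and 2.39% of contigs were called with Diet 6. It averaged 0.604 CPM with 25 fish at 0. With the covariate it was higher in both (3.21 and 2.89), while without it the log2 fold changes were -1.23 and -0.60.

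A straight line does not follow the curved members, so the square of the marker mean was added as a second covariate after the data were seen. Then 0 members were called with Diet 5 by edgeR, and 200 contigs were called in all. An unadjusted p under 0.05 and more than 1.5-fold was reached by 15 members, without the share of contigs at that threshold. With Diet 6, 1 member was called, the unnamed contig, of 264 contigs. Guanidinoacetate N-methyltransferase then had a log2 fold change of 0.00375 with Diet 6, and reticulon-1 one of 0.02 with Diet 5. DESeq2 was not run with these covariates.

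**Figure D5:**
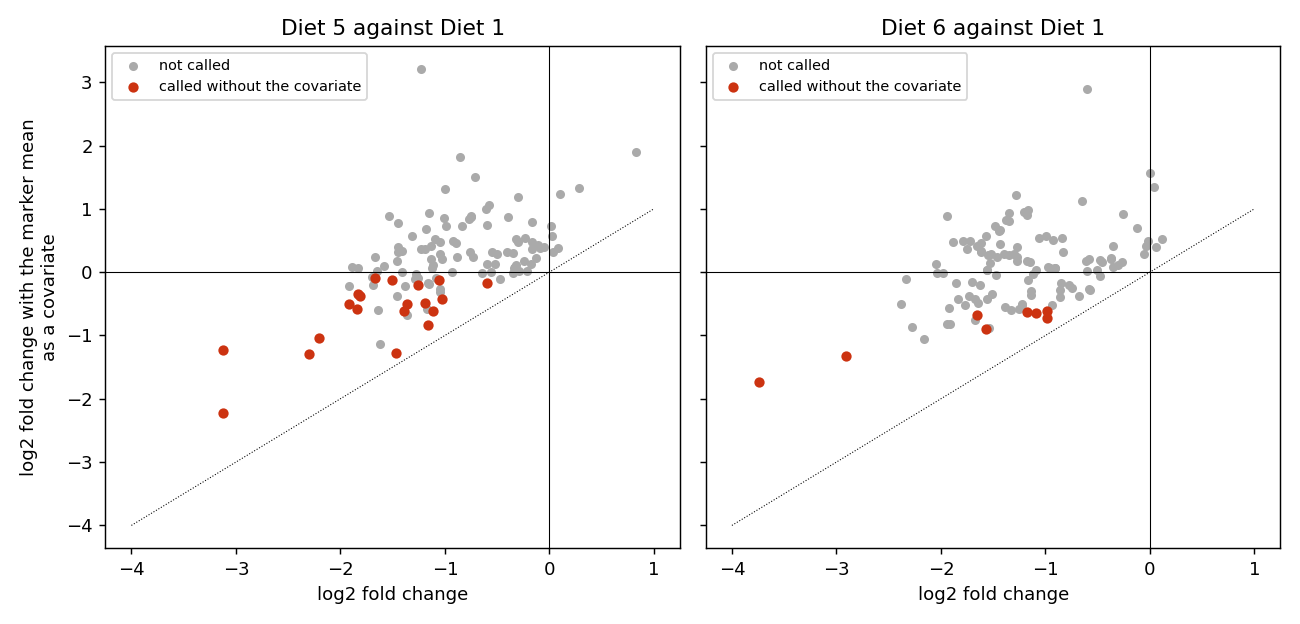
Log2 fold change of each member with Diet 5 (left) and Diet 6 (right) against Diet 1, without a covariate (horizontal axis) and with the marker mean as a covariate (vertical axis). Red points were called without the covariate, and the dotted line marks equal values. The points lie above the dotted line, and with the covariate their medians are 0.18 and 0.10.

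Contigs of other cell types were called with Diets 5 and 6 as well. Their lists also hold only contigs with a name from the study's lists of differences and are not independent evidence. Over all contigs tested, 5.78% were called in either direction with Diet 5 and 1.14% with Diet 6. With Diets 2 to 4, no contig of these lists was called. Insulin, Nkx-6.1 and gamma-synuclein, the 3 contigs left out beside the markers, had summed levels of 0.141, 1.22 and 2.91 CPM with Diet 5 (lowest, median and highest). The sums were 0.293, 0.879 and 25.9 CPM with Diet 6, and 1.06, 7.60 and 131 CPM with Diet 1, and 2 of the 3 were called lower with Diet 5. Gamma-synuclein, not used here as an islet marker, averaged 8.34 CPM, against 1.63 CPM for insulin and 1.08 CPM for Nkx-6.1, so it weighs most in the sum. Of 16 vessel and connective tissue contigs, 7 were called lower and 1 higher with Diet 5, and 1 lower with Diet 6. Their sum was 253 to 403 CPM with Diet 5 (median 288.6), 221 to 280 CPM with Diet 6 (median 260.2) and 212 to 364 CPM with Diet 1 (median 278.5). The median log2 fold change over the 16 was -0.79 with Diet 5 and -0.20 with Diet 6, so the sum with Diet 5 does not show the direction of most of the 16.

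Of 12 blood and immune contigs, 5 were called higher and 1 lower with Diet 5, and 1 lower with Diet 6, with sums of 34580 to 45130 CPM, 17820 to 31720 CPM and, with Diet 1, 31250 to 45270 CPM. The median log2 fold change over the 12 was 0.87 with Diet 5 and 0.08 with Diet 6, so the lower sum with Diet 6 was not a general shift of the 12. Of 13 hepatocyte products, 3 were called higher and 1 lower with Diet 5, and 6 lower with Diet 6. Their sum was 40200 to 54080 CPM with Diet 5, 22000 to 51500 CPM with Diet 6 and 45260 to 80340 CPM with Diet 1. Of the ER folding list, 1 was called higher and 5 lower of 20 with Diet 5, and 3 of 21 were called lower with Diet 6, with sums of 2525 to 3247 CPM, 2466 to 4246 CPM and, with Diet 1, 3294 to 4909 CPM. No contig of these lists was at 0 in all fish. The part of these cell types in the members' differences was not tested.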

How the data were processed

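White bass liver RNA was sequenced in 54 libraries, 1 per fish. The authors trimmed reads with Trim Galore, aligned them with Bowtie2 to a transcriptome and counted them with eXpress. The submitters' processing notes list Trim Galore 0.6.5, cutadapt 2.7, Bowtie2 2.3.4.1, eXpress 1.5.1 and DESeq2 1.24.0. The deposited values are eXpress effective counts, which are estimated counts adjusted for fragment and length effects, here whole numbers with no normalization between libraries. Reads that match several contigs are shared out by eXpress, so contigs of near-identical sequence are uncertain. Libraries were poly(A)-selected and made with a directional kit, and use of strand in counting is not given in the sources used here.

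Members and gene lists were chosen with earlier results of these data known. CPM and log2 CPM used TMM factors over all contigs. For each comparison, edgeR 4.0.16 (R 4.3.3) was fitted to the 18 libraries of a test diet and Diet 1, and contigs averaging under 5 counts were dropped. Each SE was derived from the log2 fold change and its F statistic. The fit and the rule were tested on simulated data. Named members given with values are the 12 with the highest r, the 3 with the smallest unadjusted p per comparison, those in a gene list, those with the highest mean and the widest range, and the contigs next to the threshold. Unnamed members are counts, with the 2 of highest r by ID. Called members outside this rule are named as well and were chosen after their values were seen, as were the pairs of members and the linear fits. Alternatives were DESeq2 1.42.0, DESeq2 size factors, other filters, a block for the replicate number, a term for the L tag, sums of the fish of each T tag, 1 fit of all libraries, the marker mean as a covariate, no fold threshold and leaving out each fish. TMM factors over kept contigs only, DESeq2 without Diet 5 replicate 7 and the square of the marker mean were added after seeing the data. The result of 1 named member is not reported here.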

Additional observations from a re-analysis of the deposited data

Results flagged for a closer look

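In each diet, the fish farthest from the others was sought for the mean of the members and for 28 named contigs, 174 groups of fish in all, by the gap to the nearest fish divided by the range of the group. The limit is 0.493 for 9 fish and 0.526 for 8. Chance passes about 1 group in 20, or 8.7 here, and 17 passed. They share fish and follow each other, so they are not separate findings.

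Of these, 14 were low values in the fish with the lowest or, for replicate 8 of Diet 4, the next lowest marker mean of its diet. The contigs examined were kept for following the marker mean within diets, so low values in such fish follow in large part from the choice. Replicate 8 of Diet 5 was lowest for the mean of the members (0.531), centromere protein F-like (0.578) and 1-phosphatidylinositol phosphodiesterase-like (0.544). Replicate 8 of Diet 3 was lowest for centromere protein F-like (0.623) and transmembrane protein 116-like (0.647). Replicate 2 of Diet 2 was lowest for excitatory amino acid transporter 2 (0.622), polycystic kidney disease protein 1-like 1 (0.592), guanidinoacetate N-methyltransferase (0.546) and transmembrane protein 116-like (0.524). Replicate 8 of Diet 1 was lowest for excitatory amino acid transporter 2 (0.544), solute carrier family 35 member D3 (0.527) and adenylate cyclase type 9 (0.593). In Diet 4, replicate 8 was lowest for lysophosphatidic acid receptor 1-A-like (0.556) and replicate 6 for atypical kinase COQ8A (0.511).

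High values that passed were 3. Replicate 5 of Diet 6 was highest for KN motif and ankyrin repeat domain-containing protein 4 (0.683) and sodium/glucose cotransporter 5 (0.5), and replicate 1 of Diet 3 for dihydrofolate reductase-like (0.531).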

How the results depend on the processing

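The number of members was 118 and lay between 105 and 123 with each fish left out, and between 112 and 119 with each marker left out. With a mean count of at least 50 it was 63, since fewer contigs were considered. Among the other settings it lay between 114 and 140. DESeq2 called 1, 25, 7 and 19 members with Diets 2, 4, 5 and 6. DESeq2 size factors gave 13 with Diet 5, the L tag 2 with Diet 2 and 11 with Diet 5, sums per T tag 5 with Diet 6, and 1 fit of all libraries 1 with Diet 4 and 15 with Diet 6. With the marker mean as a covariate 4 were called with Diet 5 and 1 with Diet 6, and the median with Diet 5 was 0.18. With its square added, 0 and 1 were called, and the medians with Diets 4, 5 and 6 were 0.0551, 0.32 and 0.39. Log2 fold changes then changed sign for reticulon-1 (0.0211), gelsolin (0.12) and chloride channel protein 2-like (0.0226) with Diet 5 and for guanidinoacetate N-methyltransferase with Diet 6 (0.00375). Of the 28 calls of named members, 13 held with each fish left out, 15 were also made by DESeq2, 5 were not and 8 had no DESeq2 adjusted p. The calls lost were 11 with the L tag, 7 with sums per T tag, 7 with DESeq2 size factors, 5 with the replicate block, 5 in 1 fit, 4 without a filter and 25 with the marker mean as a covariate. The cause was not tested for any of these, and the share of all contigs called was given above for only some of these settings.

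With each fish left out, calls ranged from 0 to 2, 0 to 0, 0 to 3, 10 to 36 and 3 to 19 with Diets 2 to 6, and the medians from -0.84 to -0.51, -0.97 to -0.66, -1.48 to -1.19, -1.18 to -0.90 and -1.54 to -1.10. With the replicate number as a block, 0, 2, 0, 21 and 7 members were called. Shares of all contigs called are not given for these fits. The number fixes the L tag, whose meaning is not given, and no label says that it marks a shared tank, batch or day. Of same-number pairs of fish in other diets, 43.8% correlated above 0.1, against 21.4% of pairs with other numbers, and 14 of 53 fish correlated best with their own number, so the block was kept as an alternative. Of pairs with the same L tag in other diets, which include the same-number pairs, 36.9% correlated above 0.1. The parts of number and tag in this likeness were not tested. With 35 members under 2 CPM, depth limits the low members.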

Other observations

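Replicate 1 of Diet 3 held the highest level over all fish of beta-galactoside-binding lectin-like (324 CPM) and glutaminase kidney isoform (14.03 CPM), and of gamma-synuclein (244 CPM), which the rule leaves out. Glutaminase kidney isoform was the only named member with a positive log2 fold change in any comparison. Its r with Nkx-6.1, 0.175, was the lowest of the members. Each member's highest CPM fell on replicate 9 of Diet 1 for 28 members, replicate 7 for 24, replicate 6 for 16 and replicate 4 for 12.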
